A study of Mus musculus with 21 samples.

Results

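The genes described here are 10 members of the microRNA pathway, chosen by name: Ago1, Ago2, Ago3, Tnrc6a, Dicer1, Drosha, Dgcr8, Xpo5, Tarbp2 and Zswim8. All 10 were found among the 22512 genes of the deposited table, and all 10 passed the filter on low counts in every fit. The question asked of them was whether their transcripts change when Ago2 is edited or when the binding of TNRC6 proteins to Argonaute is disturbed.

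MicroRNAs are made in steps. Drosha and its RNA-binding partner DGCR8 cut the primary transcript in the nucleus, exportin 5 (Xpo5) carries the hairpin out, and Dicer, helped by TARBP2, cuts it to a short duplex. One strand is loaded into an Argonaute protein, which recruits a TNRC6 protein (GW182) to repress the bound mRNA, and ZSWIM8 is the substrate receptor of a ubiquitin ligase that removes Argonaute during target-directed microRNA decay. Mouse embryonic stem cells are known for abundant microRNAs of the miR-290 and miR-302 families and rely on this machinery for normal proliferation and differentiation.

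The libraries were made from total RNA of mouse embryonic stem cells with 129S6/SvEvTac background, in 7 groups of 3 that the labels place in 2 experiments. Every group, the controls included, carried the GFP_5xT71BS reporter and a stably transfected FLAG-Cas9::T2A::Blasticidin construct. Experiment 1 held cells with no stated transfection: W (no further edit), Trim71KO (Trim71-/-) and Ago2KO (Ago2-/-). Experiment 2 held transfected cells: T6B_WT received pCIP FH-T6B_WT::mCherry, T6B_MUT received pCIP FH-T6B_MUT::mCherry, and Trim71KO_empty (Trim71-/-) and Ago2KO_empty (Ago2-/-) received an empty plasmid. T6B is a fragment of TNRC6B that binds Argonaute and competes with full-length TNRC6 proteins. Whether each edited line is 1 clone was not given in the sources used here. Experiment 2 has no group of cells without a Trim71 or Ago2 edit that received the empty plasmid, so genotype and plasmid cannot be told apart in the comparisons of its edited lines with T6B_MUT.

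Library totals ran from 29561125 to 50826201 counts in Experiment 1 and from 33910145 to 57872324 counts in Experiment 2. The summed level of 6 embryonic stem cell markers, Pou5f1 and Nanog among them, was 2927.0 to 3284.1 CPM over the libraries without a Trim71 edit, 3824.2 to 4241.1 CPM in Trim71KO and 3822.0 to 3985.5 CPM in Trim71KO_empty. CPM here are counts scaled to a common library size by TMM within an experiment. A gene is called changed at an adjusted p under 0.05 in edgeR's quasi-likelihood test, with the adjustment over all genes tested. The first comparison, Ago2KO with W, called 18.0% of the 21210 genes tested. Of the 6 stem cell markers, 2 were called higher and 1 lower in T6B_WT against T6B_MUT, beside 9.29% and 6.69% of all genes. In Ago2KO_empty against T6B_MUT it was also 2 and 1, beside 16.4% and 12.4%. Mean Pou5f1 was 967, 819 and 746 CPM in T6B_MUT, T6B_WT and Ago2KO_empty, and mean Nanog 352, 409 and 407 CPM.

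MicroRNAs were not measured. For orientation, mature sequences of the families known from these cells are shown from RefSeq (GRCm38.p6), 5′ to 3′, with the seed (bases 2 to 8) in capitals. miR-291a-3p, miR-295-3p and miR-302d-3p share the seed of the first pair, and miR-20a-5p and miR-93-5p that of the second pair.
miR-294-3p: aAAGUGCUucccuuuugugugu
miR-302b-3p: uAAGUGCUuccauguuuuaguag
miR-17-5p: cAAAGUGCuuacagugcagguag
miR-106b-5p: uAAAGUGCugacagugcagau

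The reverse complements of these seeds, AGCACTT and GCACTTT, were searched on the sense strand only in the longest 3′ UTR that GENCODE M21 (GRCm38) gives for each gene. This search was added after the members' values had been seen. The 2 motifs share 6 letters, so that a single stretch can hold both. GCACTTT occurred once in Ago1, once in Ago2, once in Tnrc6a and 3 times in Ago3, and in none of the other 6 members. AGCACTT occurred in Ago3 only, 3 times. Of 14170 tested genes with an annotated 3′ UTR, 14.0% held GCACTTT and 16.9% held AGCACTT.
Ago1, GCACTTT (chr4:126438530-126438536, minus strand): cattgacatttGCACTTTcagacgt
Ago2, GCACTTT (chr15:73096835-73096841, minus strand): tcagagctgttGCACTTTctctgta
Tnrc6a, GCACTTT (chr7:123193619-123193625, plus strand): ggacgggccctGCACTTTgaacagg
Ago3, AGCACTT (chr4:126338312-126338318, minus strand): actttaattgcAGCACTTaagaggc

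Capitals mark the match and the coordinates are those of the capitals. Long UTRs hold such a match more often. Among genes whose UTR was 0.8 to 1.25 times as long as that of the member, GCACTTT occurred in 36.9% for the length of Ago1 (4491 bases), 68.5% for Ago2 (11064 bases), 65.6% for Ago3 (12742 bases) and 21.1% for Tnrc6a (2345 bases). For these lengths in the same order, AGCACTT occurred in 44.3%, 81.5%, 78.1% and 27.0%. The UTR of Zswim8 (277 bases), Drosha (169 bases) and Tarbp2 (334 bases) was short, and 1.98%, 1.23% and 2.6% of genes of such length held GCACTTT. Over all tested genes with a UTR, the median log2 fold change of the 1977 genes with GCACTTT was 0.1 in Ago2KO and 0.04 in Trim71KO against W, and 0.1 in T6B_WT, 0.18 in Ago2KO_empty and 0.07 in Trim71KO_empty against T6B_MUT. That of the 12193 genes without it lay between -0.01 and 0.02 in these 5 comparisons. The genes with and without the motif were not matched for UTR length, and the part of length in this difference was not tested. A match is a description of letters and not a measured binding site.

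Ago2, the Argonaute with slicing activity, was examined first because it was the edited gene. It lies on chromosome 15 (73095844 to 73184935, minus strand, ENSMUSG00000036698) and overlaps Chrac1 on the other strand. Its level was 153, 134 and 140 CPM in W and 43.6, 42.5 and 39.8 CPM in Ago2KO. All 3 edited libraries lay far below all 3 controls, and transcript reads remained in each. The log2 fold change was -1.76 (with SE 0.07 and edgeR's adjusted p = 1.3e-09), a level of 0.295 times W. In Trim71KO, Ago2 stood at 142, 156 and 133 CPM, overlapping W (log2 fold change 0.01, 95% interval -0.13 to 0.15).

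The libraries labelled Ago2KO_empty did not form 1 level of Ago2. They held 87.4, 167 and 45.6 CPM in replicates 1, 2 and 3, against 113, 143 and 112 CPM in T6B_MUT. Replicate 2 lay above every T6B_MUT library and replicate 3 was close to the untransfected Ago2KO. The difference from T6B_MUT was not called (log2 fold change -0.30 with SE 0.38 and edgeR's adjusted p = 0.601), and without replicate 2 it was -0.90 with an adjusted p of 0.0382. Mccc2 and Galnt6, chosen after their values were seen, separated all 3 libraries from T6B_MUT, as they separated Ago2KO from W. Mccc2 was 3.9, 4.3 and 4.52 CPM in these libraries and 3.88 to 3.96 CPM in Ago2KO, while T6B_MUT held 13.5 to 14.5 CPM. Galnt6 was 48.9, 45.1 and 52.6 CPM against 9.23 to 9.79 CPM in T6B_MUT, and in Experiment 1 it was 25.7 to 27.4 CPM in Ago2KO against 5.80 to 7.19 CPM in W. In T6B_WT, which has no Ago2 edit, Galnt6 was 30.5, 29.7 and 26.0 CPM and Mccc2 10.1, 11.5 and 10.7 CPM. High Galnt6 is thus not particular to the Ago2 edit. Calls of members that rest on this group are therefore given with and without single libraries. Those of other genes are given from all 3 libraries only.

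The edit of Ago2 came with higher transcript levels of Ago1 and Tnrc6a, and no member of the processing steps was called. In Ago2KO against W, 3 of the 10 members were called, Ago2 lower and Ago1 and Tnrc6a higher, beside 18.0% of all genes (10.2% higher, 7.78% lower). Ago2 was the edited gene, so its call was given by the design and the count without it is closer to the share of all genes. The median log2 fold change of the 10 members was 0.04 here, 0.02 in T6B_WT and 0.07 in Ago2KO_empty against T6B_MUT, 0.05 in Trim71KO against W and -0.06 in Trim71KO_empty against T6B_MUT, while that of all genes lay between -0.00 and 0.03.

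Ago1, an Argonaute without slicing activity (chromosome 4, 126435012 to 126468583, minus strand), was at 54.6, 56.0 and 53.6 CPM in W and 75.1, 71.8 and 67.9 CPM in Ago2KO. The 2 groups did not overlap. Its log2 fold change was 0.39 (with SE 0.05 and edgeR's adjusted p = 0.000112), which is 1.31-fold. Ago3 (chromosome 4, 126331704 to 126429556, minus strand) held 18.4, 14.2 and 15.0 CPM in W and 16.4, 19.4 and 16.8 CPM in Ago2KO. These ranges overlapped and the change was not called (0.14, 95% interval -0.09 to 0.37, adjusted p = 0.422, edgeR). Ago4, which lies beside Ago1 and Ago3 on chromosome 4, was scarce at 0.194 ± 0.12 CPM in W and 0.287 ± 0.126 CPM in Ago2KO (SD, n = 3) and was not called.

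Tnrc6a encodes a GW182 protein that links Argonaute to the deadenylases (chromosome 7, 123123885 to 123195296, plus strand). It rose from 71.7, 76.5 and 74.0 CPM in W to 106, 111 and 106 CPM in Ago2KO. Every edited library exceeded every control, and the log2 fold change was 0.54 (with SE 0.05 and edgeR's adjusted p = 5.86e-06), which is 1.46-fold. Its paralogs moved the same way. Tnrc6b rose by 0.41 (with SE 0.07 and adjusted p = 0.000538) and Tnrc6c by 0.17 (with SE 0.05 and adjusted p = 0.0314) on the log2 scale in edgeR. In Trim71KO against W, Tnrc6b was also called higher (0.37 with SE 0.07 and edgeR's adjusted p = 0.000537). Tnrc6c was not called there (-0.11, adjusted p = 0.111, edgeR). Between Ago2KO and Trim71KO, Tnrc6b differed by 0.04 (adjusted p = 0.687) and Tnrc6c by 0.28 (adjusted p = 0.000556, edgeR). Tnrc6a overlaps Gm45846 on its own strand, and whether the counting told the 2 apart was not given in the sources used here.

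The enzymes of microRNA production gave small differences that did not pass the test. Dicer1 lies on chromosome 12 (104687742 to 104751952, minus strand), Drosha on chromosome 15 (12824815 to 12935291, plus strand) and Dgcr8 on chromosome 16 (18253948 to 18289246, minus strand). Xpo5 lies on chromosome 17 (46202782 to 46243598, plus strand), Tarbp2 on chromosome 15 (102518192 to 102523676, plus strand) and Zswim8 on chromosome 14 (20707552 to 20723619, plus strand). Dicer1 stood at 168, 158 and 158 CPM in W and 175, 184 and 173 CPM in Ago2KO, without overlap but with an adjusted p of 0.104 in edgeR (log2 fold change 0.14, 95% interval 0.02 to 0.25). Drosha, Dgcr8, Xpo5 and Tarbp2 had log2 fold changes of 0.06, -0.07, -0.06 and -0.07, and their 95% intervals together ran from -0.20 to 0.17. Zswim8 was 24.2 ± 1.85 CPM in W and 24.4 ± 1.93 CPM in Ago2KO (SD, n = 3), and its interval of -0.14 to 0.18 allows a small change either way. The calls of Ago1, Ago2 and Tnrc6a held in all 14 alternatives run for this comparison, those that leave out 1 library included.

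**Figure D1:**
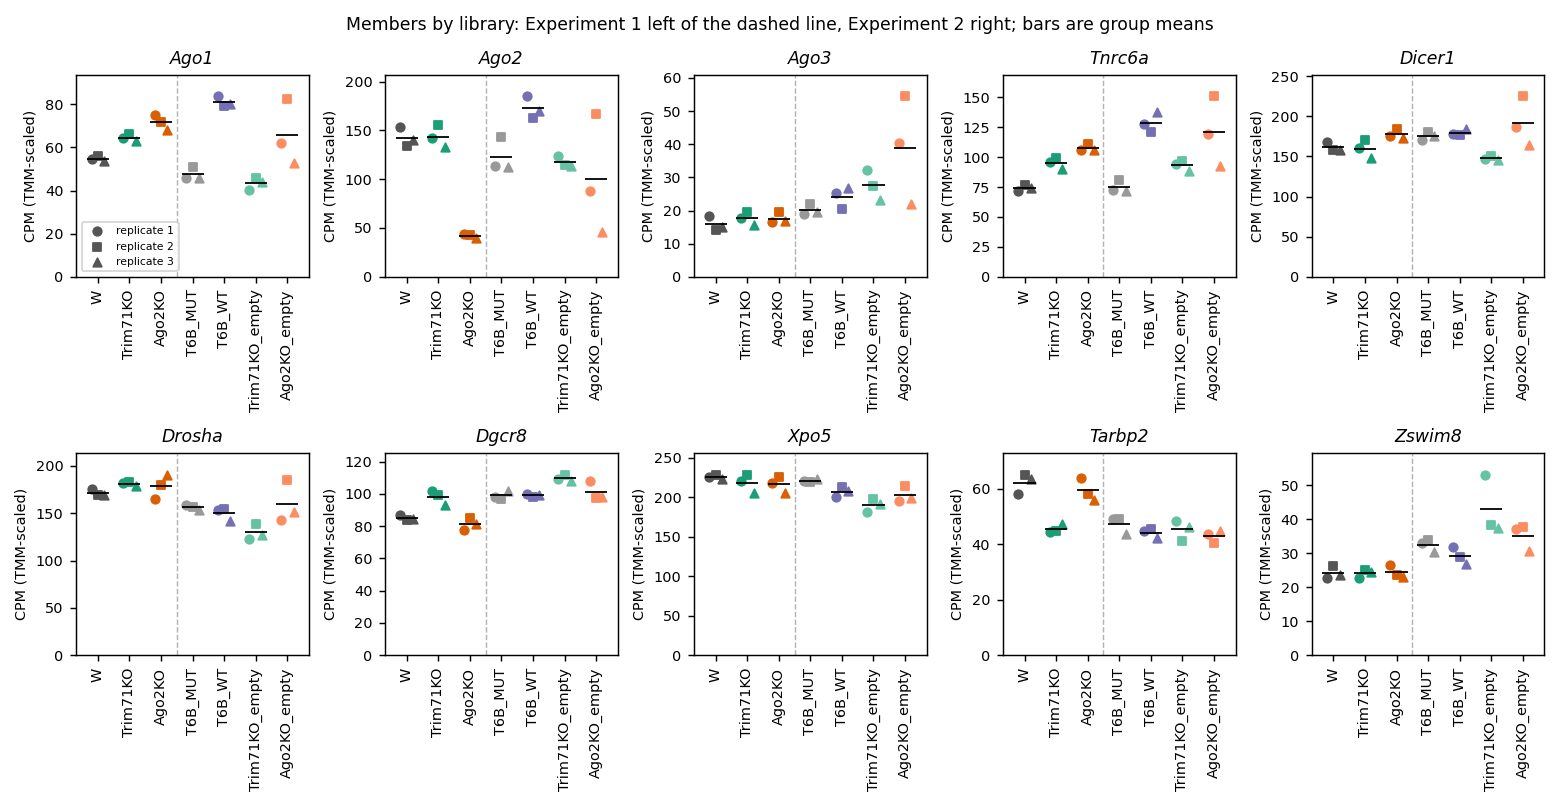
Level of each member in every library, in TMM-scaled CPM on a linear axis from 0; each point is 1 library, its shape gives the replicate and the bar is the mean of 3. Ago2 falls to 39.8 to 43.6 CPM in Ago2KO while Ago1 and Tnrc6a rise, and in Ago2KO_empty the 3 libraries spread from 45.6 to 167 CPM for Ago2.

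Levels of different genes can be compared only per length, for which the deposited RPKM were used. In W the order of mean RPKM was Xpo5 (33.4), Drosha (29.2), Tarbp2 (13.9), Dgcr8 (11.2), Ago2 (10.3), Dicer1 (9.75), Ago1 (6.83), Tnrc6a (5.91), Zswim8 (2.85) and Ago3 (0.968). Ago2 and Dicer1 overlapped over the 3 libraries, and no other neighbours in this order did. Xpo5 and Drosha thus had more transcript per length than any Argonaute in these libraries.

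The 4 Argonaute genes summed to 18.1 ± 0.723 RPKM in W and 13.1 ± 0.624 RPKM in Ago2KO (SD, n = 3). Ago2 itself went from 10.3 to 3.03 RPKM and the other 3 together from 7.82 ± 0.17 to 10.1 ± 0.502 RPKM. The rise of the others was therefore smaller than the fall of Ago2, and the sums of the 2 groups did not overlap (17.6 to 18.9 against 12.4 to 13.6 RPKM). Ago2 made up 56.7% ± 1.41 of the sum in W and 23.2% ± 0.0577 in Ago2KO, where Ago1 made up 68.3% ± 0.702. These are shares of transcripts. Protein was not measured, and what protein the remaining Ago2 transcripts encode was not tested.

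**Figure D2:**
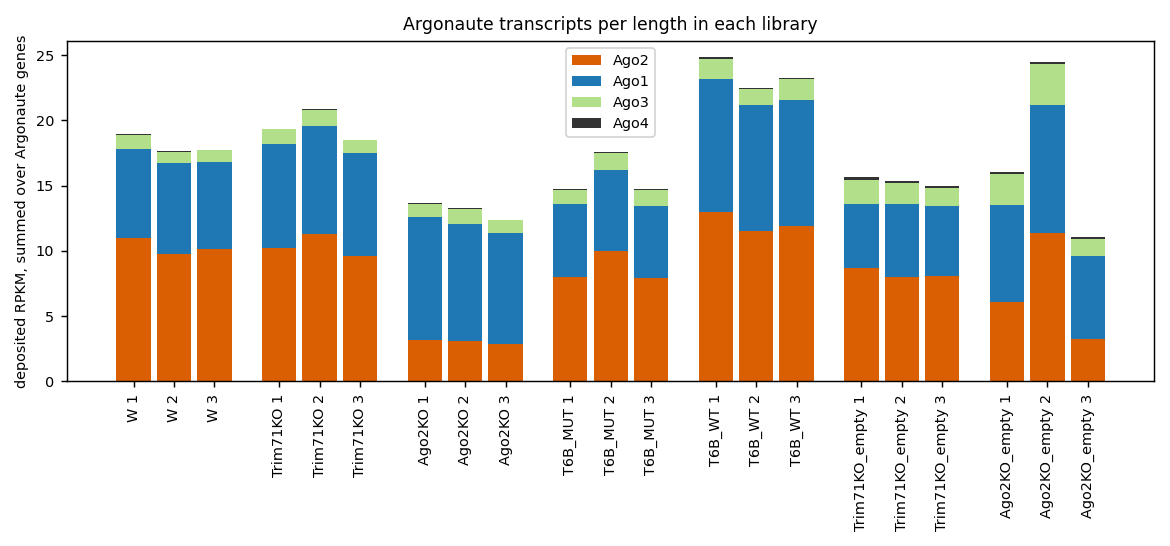
Deposited RPKM of Ago2, Ago1, Ago3 and Ago4 stacked for each of the 21 libraries, linear axis from 0. The sum is lower in Ago2KO (12.4 to 13.6 RPKM) than in W (17.6 to 18.9 RPKM), is highest on average in T6B_WT (22.5 to 24.9 RPKM) and differs widely among the Ago2KO_empty libraries (11.1 to 24.4 RPKM).

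The Argonaute-binding peptide came with higher Ago1 and Tnrc6a as well. In T6B_WT against T6B_MUT, 16.0% of 21505 genes were called (9.29% higher, 6.69% lower), and 2 of the 10 members, both higher. Ago1 was 83.8, 79.3 and 80.3 CPM in T6B_WT and 45.9, 51.1 and 45.8 CPM in T6B_MUT. Tnrc6a was 128, 121 and 138 CPM against 72.7, 81.2 and 71.9 CPM. The groups were well apart for both genes. The log2 fold change was 0.77 for Ago1 (with SE 0.12 and adjusted p = 0.00087) and 0.78 for Tnrc6a (with SE 0.14 and adjusted p = 0.00297) in edgeR, or 1.71-fold each, and both calls held in all 14 alternatives.

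Ago2 was 185, 163 and 170 CPM in T6B_WT and 113, 143 and 112 CPM in T6B_MUT, so the groups did not overlap. The fit over all 12 libraries of Experiment 2 did not call it (log2 fold change 0.49 with SE 0.38 and edgeR's adjusted p = 0.461). That fit uses 1 estimate of spread per gene for all 4 groups. Fitted on the 2 T6B groups alone, the same 0.49 had an adjusted p of 0.005. Ago3 was 25.3, 20.6 and 26.7 CPM against 19.0, 22 and 19.7 CPM, with overlapping groups. Its adjusted p was 0.639 over all libraries and 0.0422 on the 2 groups alone (edgeR). Ago4 rose by 0.74 on the log2 scale from a low level (with SE 0.22 and edgeR's adjusted p = 0.0242). Against the same T6B_MUT libraries, Ago4 was also called higher in Ago2KO_empty (0.79, adjusted p = 0.0106) and in Trim71KO_empty (0.90, adjusted p = 0.00391, edgeR).

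The summed Argonaute RPKM was 23.5 ± 1.23 in T6B_WT and 15.7 ± 1.65 in T6B_MUT (SD, n = 3), with an Ago2 share of 51.5% ± 0.781 and 54.9% ± 1.87. The processing genes stayed within narrow intervals. Dicer1, Drosha, Dgcr8, Xpo5 and Tarbp2 had log2 fold changes of 0.04, -0.06, -0.00, -0.09 and -0.10, none called, and the intervals together covered -0.25 to 0.21. Zswim8 was at 31.7, 29.0 and 26.8 CPM against 33.1, 33.8 and 30.3 CPM, with overlap and no call (log2 fold change -0.15, adjusted p = 0.475, edgeR).

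Tnrc6b needs care in this comparison, because the T6B plasmids carry part of its sequence. It was 217 to 268 CPM over T6B_WT and T6B_MUT and 67.6 to 145 CPM over the 2 groups with an empty plasmid. Plasmid and endogenous transcripts cannot be told apart in these counts, and the difference between T6B_WT and T6B_MUT (0.10, adjusted p = 0.812, edgeR) therefore does not describe the endogenous gene. Tnrc6c, which is not on the plasmid, was 125 ± 4.29 CPM in T6B_WT and 121 ± 2.24 CPM in T6B_MUT (SD, n = 3) and was not called.

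The changes in T6B_WT and in Ago2KO come from different experiments with separate controls, and their difference was tested over all 21 libraries. That test called 3.16% of 22258 genes (2.22% with a higher change under T6B, 0.939% lower) and 1 of the 10 members, Ago2, whose change was 2.26 higher on the log2 scale under T6B (with SE 0.41 and edgeR's adjusted p = 0.00589). Ago2 is the edited gene of Ago2KO, so this call was given by the design and does not compare T6B with Ago2 loss. For Ago1 the change was 0.38 higher under T6B (95% interval 0.11 to 0.66, adjusted p = 0.15), and with the length trend removed it was 0.40 higher and called (adjusted p = 0.0419). For Tnrc6a it was 0.24 higher (95% interval -0.07 to 0.54, adjusted p = 0.537) and not called.

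Markers of 2-cell-like cells, a rare state of stem cell cultures, moved with some of these groups. The summed level of Zscan4c, Zscan4d, Zscan4f and Tcstv1 was 69.7 to 71.8 CPM in T6B_WT, 14.6 to 15.8 CPM in T6B_MUT and 50.1 to 60.8 CPM in Ago2KO_empty. In Experiment 1 it went the other way, from 10.4 to 11.7 CPM in W to 2.01 to 2.68 CPM in Ago2KO. It was 0.452 to 0.895 CPM in Trim71KO and 14.9 to 16.2 CPM in Trim71KO_empty.

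Markers of primitive endoderm, among them Gata4 and Gata6, summed to 17.3 to 20.2 CPM in W, 5.78 to 7.54 CPM in Ago2KO (4 of 4 called lower) and 3.08 to 3.59 CPM in Trim71KO (3 of 4 called lower). Of all genes, 7.78% were called lower in Ago2KO and 15.6% in Trim71KO. In Experiment 2 they summed to 13.4 to 13.8 CPM in T6B_MUT, 11.4 to 12.9 CPM in T6B_WT, 8.83 to 12.4 CPM in Ago2KO_empty and 5.46 to 7.25 CPM in Trim71KO_empty. The 3 neural markers summed to 31.9 to 35.5 CPM in T6B_WT and 22.2 to 23.6 CPM in T6B_MUT, and to 26.7 to 28.9 CPM in Ago2KO and 21.2 to 23.5 CPM in W. They summed to 24.3 to 29.4 CPM in Trim71KO, 23.4 to 24.0 CPM in Ago2KO_empty and 18.0 to 21.3 CPM in Trim71KO_empty. The part of these cells in the members' changes was not tested. In bulk RNA, a change in the share of cells of a type and a change in RNA per cell cannot be told apart.

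**Figure D3:**
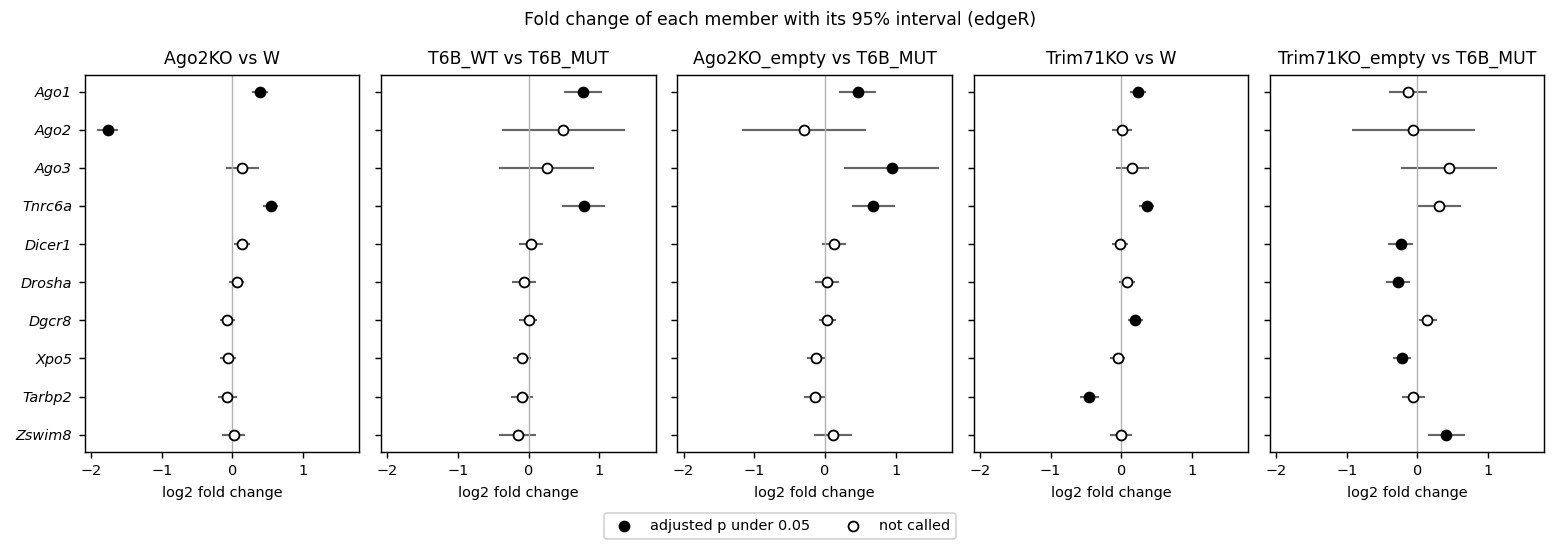
Log2 fold change (x axis) of each member in the 5 comparisons with a control, as point and 95% interval from edgeR; filled points have an adjusted p under 0.05. Ago1 and Tnrc6a are filled in the first 4 panels, and the intervals of Ago2 and Ago3 are wide in the 3 panels of Experiment 2.

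The libraries labelled Ago2KO_empty repeated the rise of Ago1 and Tnrc6a at uneven height. Against T6B_MUT, 28.8% of genes were called (16.4% higher, 12.4% lower), and 3 of the 10 members: Ago1, Ago3 and Tnrc6a, all higher. Ago1 was 62.1, 82.5 and 52.7 CPM in replicates 1 to 3, each above the 45.8 to 51.1 CPM of T6B_MUT (log2 fold change 0.47 with SE 0.12 and edgeR's adjusted p = 0.0132). Without replicate 2 it was 0.25, with an adjusted p of 0.0238, and fitted on the 2 groups alone it lost the call (adjusted p = 0.084). Tnrc6a was 119, 151 and 92.5 CPM against 71.9 to 81.2 CPM (0.68 with SE 0.14 and adjusted p = 0.00411), and 0.47 without replicate 2 (adjusted p = 0.000627).

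Ago3 reached 40.5, 54.5 and 21.9 CPM, against 19.0 to 22 CPM in T6B_MUT, so replicate 3 lay inside the control range. Its call (log2 fold change 0.95 with SE 0.29 and edgeR's adjusted p = 0.043) held in 7 of 14 alternatives. Leaving out 1 library ended it in 5 of 6 cases, any 1 of the 3 T6B_MUT libraries among them, and without replicate 2 the value was 0.61 with an adjusted p of 0.127. Tnrc6c was called higher in the same comparison, by 0.29 on the log2 scale (with SE 0.06 and edgeR's adjusted p = 0.00147), and varied little, from 139 to 153 CPM.

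Replicate 2 held the highest of the 3 values for 8 of the 10 members. For Ago1, Ago2, Ago3, Tnrc6a and Dicer1 the order of the libraries was the same, with replicate 2 highest and replicate 3 lowest. Over all members, 6 of 10 had both this maximum and this minimum, beside 24.7% of all genes tested. Dicer1 was 187, 225 and 164 CPM and Drosha 143, 185 and 151 CPM, while Dgcr8 (108, 97.6 and 98.2 CPM) and Tarbp2 (43.7, 40.3 and 44.9 CPM) were lowest in replicate 2. Gene length moved with this order: the median deviation of genes of at least 8 kb from the group's mean was 0.114 in replicate 2 and -0.126 in replicate 3 on the log2 scale. With each library's length trend removed, Ago1 (0.35), Ago3 (0.62) and Tnrc6a (0.45) were still called against T6B_MUT. Dicer1 (-0.16, adjusted p = 0.0332) and Xpo5 (-0.20, adjusted p = 0.0121, edgeR) were then called lower. Xpo5 was 196, 214 and 199 CPM, below the 219 to 223 CPM of T6B_MUT. It was not called as reported (-0.12, adjusted p = 0.139) but was called without replicate 2 (-0.18, adjusted p = 0.0464, edgeR).

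**Figure D4:**
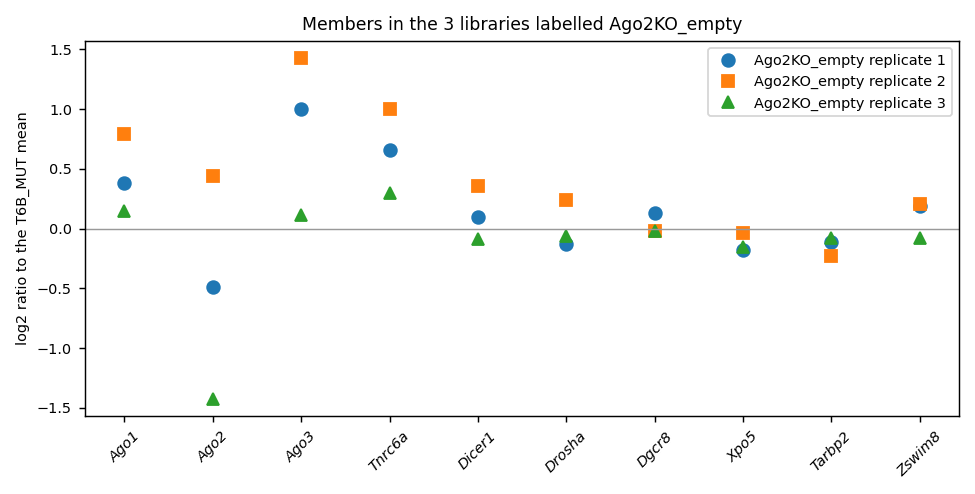
Log2 ratio of each member in the 3 libraries labelled Ago2KO_empty to the mean of T6B_MUT; the shape and colour give the replicate and 0 is the T6B_MUT mean. The libraries are furthest apart for Ago2, from -1.43 to 0.44, and Ago1 and Tnrc6a lie above 0 in all 3.

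The change on Ago2 loss was compared between the experiments in 1 test over all libraries, which called 2.13% of genes (0.669% higher, 1.46% lower). By edgeR 0 of the 10 members were called and 2, Ago2 and Ago3, had an unadjusted p under 0.05, while DESeq2 called 1, Ago2. The adjusted p from edgeR was 0.0977 for Ago2 and 0.28 for Ago3. The difference, Experiment 1 minus Experiment 2, was -1.45 for Ago2 and -0.79 for Ago3 on the log2 scale. Without Ago2KO_empty replicate 3 both were called, at -1.79 and -1.07. Ago1 and Tnrc6a differed by -0.07 (95% interval -0.34 to 0.21) and -0.13 (95% interval -0.43 to 0.18).

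Loss of Trim71, a stem cell RNA-binding protein that represses mRNAs, gave a line with an edit other than that of Ago2. Its transcript was 602 to 618 CPM in W and 412 to 459 CPM in Trim71KO, and 482 to 503 CPM in T6B_MUT and 393 to 409 CPM in Trim71KO_empty. In Trim71KO against W, 32.6% of genes were called (16.9% higher, 15.6% lower) and 4 of the 10 members. Ago1 was 64.2, 66.1 and 63.1 CPM against 53.6 to 56.0 CPM in W (log2 fold change 0.24 with SE 0.05 and edgeR's adjusted p = 0.00252). Tnrc6a was 96.0, 99.5 and 89.8 CPM against 71.7 to 76.5 CPM (0.36 with SE 0.05 and adjusted p = 8.73e-05). Both were thus higher in this line too. With the length trend removed the values were 0.15 for Ago1 (adjusted p = 0.0272) and 0.22 for Tnrc6a (adjusted p = 0.00266, edgeR). Of the 6 embryonic stem cell markers, 4 were called higher in Trim71KO and 5 in Trim71KO_empty, beside 16.9% and 14.4% of all genes. Pou5f1 was not higher. Its mean was 1218.4 CPM in Trim71KO and 1239.6 CPM in W, and 950 CPM in Trim71KO_empty and 967 CPM in T6B_MUT. The part of these markers' differences in the changes of Ago1 and Tnrc6a was not tested.

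The other 2 called members belong to the processing step. Dgcr8, the partner of Drosha, was 102, 99.3 and 93.3 CPM in Trim71KO and 86.9, 83.8 and 84.6 CPM in W (0.20 with SE 0.05 and edgeR's adjusted p = 0.00669), and lost the call with the length trend removed (0.12, adjusted p = 0.0537). Reads of Dgcr8 and of Trmt2a, which overlaps it on the other strand, cannot be told apart unless the counting used strand. Tarbp2, the partner of Dicer, fell from 58.2, 65.2 and 63.5 CPM to 44.6, 44.7 and 47.4 CPM (log2 fold change -0.45 with SE 0.06 and edgeR's adjusted p = 5.82e-05). It was below every control library in all 3 edited ones. With the length trend removed, 6 members were called in place of 4, with Dicer1 at -0.19 (adjusted p = 0.0017), Xpo5 at -0.12 (adjusted p = 0.0451) and Ago2 at -0.13 (adjusted p = 0.0448) lower in edgeR.

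The 2 edited lines of Experiment 1 were also set against each other, and this comparison called 34.2% of genes (17.1% higher and 17.1% lower in Ago2KO) and 6 of the 10 members. Ago1 (0.15), Tnrc6a (0.18), Dicer1 (0.15) and Tarbp2 (0.38) were higher in Ago2KO and Ago2 (-1.78) and Dgcr8 (-0.27) were lower, as log2 fold changes. The call of Ago2, the edited gene, was again given by the design. Ago1 and Tnrc6a were thus slightly higher in Ago2KO than in Trim71KO, with adjusted p of 0.0327 and 0.0132 in edgeR. Leaving out 1 library ended the call of Ago1 in 4 of 6 cases, that of Tnrc6a in 2 of 6 and that of Dicer1 in 5 of 6, and 3 members were called without Trim71KO replicate 3 or without Ago2KO replicate 2.

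In Experiment 2 the called members of the Trim71 line were Dicer1, Drosha, Xpo5 and Zswim8. Trim71KO_empty against T6B_MUT called 27.8% of genes (14.4% higher, 13.4% lower) and 4 of the 10 members. Dicer1 was 147, 150 and 146 CPM against 171, 180 and 175 CPM (log2 fold change -0.24 with SE 0.08 and edgeR's adjusted p = 0.032). Drosha was 123, 139 and 127 CPM against 159, 157 and 153 CPM (-0.27 with SE 0.08 and adjusted p = 0.0166). Xpo5, the export receptor, was 181, 198 and 192 CPM against 221, 219 and 223 CPM (-0.22 with SE 0.06 and adjusted p = 0.0123). These 3 genes were lower in every edited library.

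Zswim8 was 53.2, 38.4 and 37.5 CPM in Trim71KO_empty and 33.1, 33.8 and 30.3 CPM in T6B_MUT (0.41 with SE 0.12 and edgeR's adjusted p = 0.0225), with replicate 1 far above the other edited libraries. Without Trim71KO_empty replicate 1, 0 of the 10 members were called by edgeR, and 4 had an unadjusted p under 0.05. The values were then -0.24 for Dicer1, -0.24 for Drosha, -0.19 for Xpo5 and 0.22 for Zswim8, with adjusted p of 0.0564 to 0.112. The call of Dicer1 also ended without T6B_MUT replicate 2 or 3 or Trim71KO_empty replicate 3, 4 of the 6 libraries in all, and that of Zswim8 without T6B_MUT replicate 3. Ago1 was 40.3, 45.8 and 43.8 CPM, at or just below the lowest T6B_MUT library and not called (-0.14, adjusted p = 0.458). Tnrc6a was 94.7, 96.5 and 88.1 CPM, above every T6B_MUT library, with an adjusted p of 0.127 over all libraries and 0.000934 on the 2 groups alone.

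The change on Trim71 loss differed between the experiments for 2 of the 10 members, beside 10.1% of all genes (5.01% higher, 5.04% lower), in a test added after the values had been seen. Drosha differed by 0.35 (adjusted p = 0.0253) and Tarbp2 by -0.39 (adjusted p = 0.0129, edgeR). Ago1, with 0.24 in Experiment 1 and -0.14 in Experiment 2, differed by 0.37 with an adjusted p of 0.0857.

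The edited lines of Experiment 2, which both received the empty plasmid, were compared directly. This comparison called 31.6% of genes (16.9% higher, 14.7% lower) and 3 of the 10 members, all higher in Ago2KO_empty: Ago1 (0.60 with SE 0.12 and adjusted p = 0.00229), Dicer1 (0.38 with SE 0.08 and adjusted p = 0.00162) and Drosha (0.30 with SE 0.08 and adjusted p = 0.00806), as log2 fold changes from edgeR. The lowest Ago1 library of Ago2KO_empty, at 52.7 CPM, lay above the highest of Trim71KO_empty, at 45.8 CPM. Without Ago2KO_empty replicate 2, Ago1 (0.40) and Dicer1 (0.24) were called and Drosha was not (0.17, adjusted p = 0.064, edgeR).

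Other genes of the pathway were read from lists of cofactors. Among 14 cofactors of Drosha and Dicer, 1 was higher and 1 lower in Ago2KO, beside 10.2% and 7.78% of all genes. In T6B_WT, 0 were called by edgeR, beside 16.0% of all genes, and 2 had an unadjusted p under 0.05. Of microRNA host transcripts, 0 of 6 were called in Ago2KO and 0 of 7 in T6B_WT by edgeR, beside 18.0% and 16.0% of all genes. Of these host transcripts, 0 had an unadjusted p under 0.05 in either comparison. Of 11 chaperones of Argonaute loading, 5 were lower and none higher in Ago2KO, with a median log2 fold change of -0.15, beside 7.78% of all genes. Cdc37, an HSP90 co-chaperone, had the largest fall among them, by 0.26 on the log2 scale (with SE 0.07 and edgeR's adjusted p = 0.0191). In T6B_WT, 1 of the 11 was higher (Hsp90ab1, 0.26) and 1 lower (Fkbp5, -0.26), beside 9.29% and 6.69% of all genes.

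Of 12 partners and regulators of Argonaute, 3 were higher and 1 lower in Ago2KO, beside 10.2% and 7.78% of all genes. The largest increases were in 2 subunits of the phosphatase complex that acts on Argonaute, Ankrd52 and Ppp6c. Ankrd52 went from 11.6 ± 0.272 to 21.8 ± 1.51 CPM (log2 fold change 0.91 with SE 0.08 and edgeR's adjusted p = 1.61e-06). Ppp6c went from 55.5 ± 2.85 to 82.0 ± 6.54 CPM (0.56 with SE 0.06 and adjusted p = 2.36e-05). In T6B_WT, Ppp6c was again higher (0.40 with SE 0.07 and adjusted p = 0.000971) and Ankrd52 had 0.82 without a call (with SE 0.36 and adjusted p = 0.182). In Trim71KO neither was called, at -0.02 and 0.02. Mov10, an RNA helicase that associates with Argonaute, had the largest called increase of the cofactor lists in T6B_WT (0.49 with SE 0.09 and adjusted p = 0.000682).

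Of 15 genes of microRNA tailing and turnover, 2 were higher and 4 lower in Ago2KO, beside the same shares. Lin28b, which blocks let-7 maturation, fell by 0.64 on the log2 scale (with SE 0.08 and edgeR's adjusted p = 8.01e-05), and Eri1, an exonuclease, rose by 0.34 (with SE 0.05 and adjusted p = 0.000401). In T6B_WT, 2 were higher and 2 lower, beside 9.29% and 6.69% of all genes, among them Lin28a, lower by 0.35 (log2 fold change -0.35 with SE 0.08 and adjusted p = 0.0058). Lin28a was also lower in both Trim71 comparisons, with log2 fold changes of -0.58 and -0.87. Of the other genes with the largest called changes, Trim71 had -0.25 in Ago2KO and Tsn, a subunit of the translin nuclease complex, had -0.28 in T6B_WT.

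In the remaining comparisons with a control, the same lists gave mixed directions. Ago2KO_empty against T6B_MUT had 0 higher and 3 lower of 14 cofactors, 0 and 3 of 11 chaperones, 2 and 2 of 12 partners, 4 and 4 of 15 turnover genes and 1 and 0 of 7 hosts, beside 16.4% and 12.4% of all genes. The largest called log2 fold changes there were Mir124-2hg 1.37, Tut4 0.74, Ppp6c 0.39, Lin28a -0.42, Erh -0.41 and Eloc -0.37. Mir124-2hg was scarce in Ago2KO_empty (0.397 ± 0.142 CPM, adjusted p = 0.0362). Tut4 was uneven there (84.1 ± 31.3 CPM, SD, n = 3, edgeR's adjusted p = 0.0388). Tut4 is a terminal uridylyltransferase and Eloc a subunit of elongin-containing ubiquitin ligases.

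Trim71KO against W had 2 higher and 2 lower cofactors, 2 and 2 chaperones, 2 and 4 partners, 6 and 2 turnover genes and 2 and 0 of 6 hosts, beside 16.9% and 15.6% of all genes. Mir100hg (1.66), Mir124a-1hg (0.66) and Eri1 (0.51) led the increases and Ajuba (-0.65), Lin28a (-0.58) and Trim71 (-0.50) the decreases. Trim71KO_empty against T6B_MUT had 1 higher and 3 lower cofactors, 1 and 3 chaperones, 0 and 2 partners, 3 and 2 turnover genes and 2 and 0 of 7 hosts, beside 14.4% and 13.4% of all genes. Tut7 (0.48), Mir22hg (0.48) and Safb2 (0.34) led the increases and Lin28a (-0.87), Fkbp4 (-0.60) and Erh (-0.31) the decreases.

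The edited lines were also compared over these lists. Ankrd52 (0.93), Ppp6c (0.54) and Ajuba (0.45) were higher and Mir100hg (-1.43), Lin28b (-0.76) and Mir124a-1hg (-0.54) lower in Ago2KO than in Trim71KO. Ankrd52 (1.13), Tut4 (0.71) and Ppp6c (0.46) were higher and Mir124a-1hg (-0.60), Fkbp5 (-0.50) and Mir22hg (-0.40) lower in Ago2KO_empty than in Trim71KO_empty. In Ago2KO_empty, Ankrd52 (23.6 ± 13.4 CPM) and Tut4 (84.1 ± 31.3 CPM, SD, n = 3) were uneven. Their adjusted p values were 0.0475 and 0.0431 in edgeR.

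Genes whose pattern was most like each member were found by Pearson correlation of log2 CPM over the 21 libraries, after the mean of each experiment was subtracted, among 12581 genes. For Ago2 they were Lin28b (r = 0.84), Ccdc6 (0.81) and Gm16433 (0.81). Ago1 was closest to Epb41l5 (0.94), Tnrc6a to Nid1 (0.95), Ago3 to Arhgap35 (0.97) and Dicer1 to Zfp318 (0.96). For the remaining members these were Shroom4 for Drosha (0.85), Tfrc for Dgcr8 (0.94), Srpk1 for Xpo5 (0.90), Snx8 for Tarbp2 (0.94) and Phf1 for Zswim8 (0.88). Among the members themselves, Ago1 and Tnrc6a had r = 0.87. Libraries of 1 group share their cells and treatment, so these are descriptions only.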

How the data were processed

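The authors deposited 1 table of 22512 genes with raw counts and RPKM for each of 21 libraries and a gene length, per the file headers. The deposited counts are whole and not normalized. The RPKM were computed by the authors per kilobase of that length, and used here only for levels between genes. STAR 2.7.3a and bcl2fastq 2.17 and the build GRCm38 are named in the submitters' processing notes. The annotation and the use of strand in counting are not given in the sources used here. Symbols are those of the deposited table, with the 4789 genes that lack one there looked up by ID in a reference table of names, and coordinates came from GENCODE M21 (22480 IDs matched).

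Counts were tested with edgeR 4.0.16 in R 4.3.3 (quasi-likelihood F test, robust, TMM, filterByExpr with a minimum count of 10, Benjamini-Hochberg adjustment over all genes). Experiment 1 (21210 genes), Experiment 2 (21505) and all libraries (22258, for differences) were fitted separately. The procedure was tested on simulated data. The design text calls the 3 replicates of a group biological. Alternatives were DESeq2 1.42.0, other normalizations and filters, single libraries left out, a replicate block, the 2 groups alone and, added after seeing the data, removal of the length trend. Members and lists were chosen with earlier results of these data known. Genes named by a fixed rule beyond the members were the paralogs Ago4, Tnrc6b and Tnrc6c and, per comparison, the 3 largest called increases and decreases over the pathway lists, with their values in other comparisons where given, and the genes most correlated with each member. Marker genes came from lists, and Mccc2 and Galnt6 were chosen after their values were seen. Of 4 fibroblast markers, 3 were in the table and summed to 2.73 to 11.6 CPM.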

Additional observations from a re-analysis of the deposited data

Results flagged for a closer look

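The change on Trim71 loss differed between the experiments, by a test of the difference itself over all 21 libraries, for 2 members. Drosha differed by 0.35 on the log2 scale, Experiment 1 minus Experiment 2 (with SE 0.10 and edgeR's adjusted p = 0.0253). It was 171 ± 3.73 CPM in W and 181 ± 1.98 CPM in Trim71KO, and 157 ± 2.84 CPM in T6B_MUT and 130 ± 8.43 CPM in Trim71KO_empty (SD, n = 3). This call held in 10 of 19 alternatives. Tarbp2 differed by -0.39 (with SE 0.10 and edgeR's adjusted p = 0.0129), with 62.3 ± 3.65 and 45.6 ± 1.57 CPM in the first experiment and 47.3 ± 3.12 and 45.4 ± 3.67 CPM in the second, and its call held in all 19 alternatives. The controls of the experiments differ in transfection and plasmid, which cannot be told apart from the experiment.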

How the results depend on the processing

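For single members, 724 of 770 values from settings that leave out no library kept direction and side of the threshold, 7 lost and 19 gained a call, and 20 changed sign. Fitting the 2 groups alone gave 5632 genes and 4 members called in T6B_WT against T6B_MUT, 1 member and 5287 genes in Ago2KO_empty and 7 members and 7242 genes in Trim71KO_empty against T6B_MUT. With the length trend removed, members and genes called were 5 and 5966 in Ago2KO_empty against T6B_MUT, 6 and 7243 between the empty-plasmid lines, 6 and 6988 in Trim71KO against W and 2 and 823 in T6B effect minus Ago2KO effect. DESeq2 called 5 members and 6611 genes between the empty-plasmid lines and 1 member and 590 genes in the difference of Ago2 loss. The cause was not tested.

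Not every pair of same-numbered replicates deviated together (r from -0.70 to 0.72 in Experiment 1 and -0.44 to 0.40 in Experiment 2). The median r was 0.10 for same-numbered and -0.12 for other pairs in Experiment 1, and -0.05 and -0.02 in Experiment 2. Each deviation was taken from a mean of only 3 libraries, so this check cannot decide whether the numbers pair libraries. With the replicate block, 3831 genes were called in Ago2KO and 3247 in T6B_WT, 5 members between the empty-plasmid lines, and Ago3 in Ago2KO_empty lost its call (0.90, adjusted p = 0.0674).

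Leaving out 1 library at a time gave these ranges of genes called: 2045 to 2497 for T6B_WT, 3894 to 8083 for Ago2KO_empty against T6B_MUT and 269 to 1634 for the difference of Ago2 loss. The first fell most without T6B_MUT replicate 1 and the second also without Ago2KO_empty replicate 1, while the third rose without Ago2KO_empty replicate 3 and fell without replicate 1 of W, Ago2KO, T6B_MUT or Ago2KO_empty. Members called ranged from 3 to 6 (Ago2KO against Trim71KO), 0 to 4 (Trim71KO_empty against T6B_MUT), 2 to 5 (between the empty-plasmid lines), 0 to 2 (difference of Ago2 loss) and 1 to 3 (difference of Trim71 loss).

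These sign changes were in members that were not called as reported. With library totals only they were Zswim8 in Trim71KO (0.01), Ago3 (0.01), Drosha (0.01) and Xpo5 (0.02) in Ago2KO against Trim71KO, Drosha (-0.02) and Dgcr8 (-0.01) in Ago2KO_empty, and Ago1 in the difference of Ago2 loss (0.0038). With CPM over 1 in 3 libraries it was Dgcr8 under T6B (0.01). With the length trend removed they were Zswim8 in Ago2KO (-0.04), Ago2 (-0.13, adjusted p = 0.0448 in edgeR) and Ago3 (-0.01) in Trim71KO, Ago3 (0.03), Drosha (0.00078) and Xpo5 (0.02) in Ago2KO against Trim71KO, Dicer1 under T6B (-0.10), Dicer1 (-0.16, adjusted p = 0.0332), Drosha (-0.02), Dgcr8 (-0.07) and Zswim8 (-0.01) in Ago2KO_empty, and Tarbp2 in T6B effect minus Ago2KO effect (0.0015).

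Some members changed sign when 1 library was left out. The ranges of log2 fold changes were -0.05 to 0.08 for Zswim8 in Ago2KO and, in Trim71KO, -0.05 to 0.07 for Ago2, -0.06 to 0.03 for Dicer1 and -0.05 to 0.06 for Zswim8. In Ago2KO against Trim71KO they were -0.10 to 0.07 for Ago3, -0.07 to 0.03 for Drosha, -0.06 to 0.03 for Xpo5 and -0.05 to 0.06 for Zswim8, and under T6B -0.03 to 0.01 for Dgcr8. In Ago2KO_empty against T6B_MUT they were -0.90 to 0.02 for Ago2, -0.01 to 0.21 for Dicer1, -0.11 to 0.08 for Drosha and -0.04 to 0.04 for Dgcr8. Ago2 ranged from -0.13 to 0.06 in Trim71KO_empty and from -0.83 to 0.08 between the empty-plasmid lines. In the difference of Ago2 loss they were -0.20 to 0.12 for Ago1, -0.28 to 0.05 for Tnrc6a, -0.08 to 0.13 for Dicer1 and -0.01 to 0.15 for Drosha. Tarbp2 ranged from -0.09 to 0.03 in T6B effect minus Ago2KO effect, and in the difference of Trim71 loss Ago2 ranged from -0.08 to 0.12 and Tnrc6a from -0.03 to 0.09. The lowest level of any member in any library was 14.2 CPM (666 counts, Ago3).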
